A study of Gallus gallus with 4 samples.

Results

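Chromosome 16 of the chicken is a microchromosome that carries the major histocompatibility complex (MHC). The genes described here are all those whose first exon was placed on chromosome 16 of the galGal4 assembly in the deposited count table, whatever their counts. They numbered 47 of 17108 genes. In the MEK1ca group, pCIG plasmid carrying MEK1ca, a constitutively active form of the kinase that phosphorylates ERK, was electroporated at 1 µg/µl together with empty pCIG at 1 µg/µl. In the pCIG group, the empty vector was used alone at 2 µg/µl. Both groups received 5 bilateral pulses of 50 ms at 25 V into the neural tube in ovo at stage HH 11, and cells expressing the plasmids' GFP were sorted by FACS after 18 h. There were 2 RNA-seq libraries per group. The RNA came from pooled embryos, and p-values cover only how much pools of this kind vary.

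The chicken MHC is known for its compact B region, in which genes for antigen presentation lie close together. MHC class I molecules (BF genes) show peptides made inside the cell to cytotoxic T cells, and the TAP transporter and tapasin bring and load those peptides. MHC class II molecules (BLB genes) show peptides taken up from outside to helper T cells, with DM molecules as loading helpers. BG genes code for butyrophilin-like surface proteins, and CD1 molecules present lipids. The chromosome also carries TRIM genes and genes used by nearly all cells, among them RACK1, a protein bound to the ribosome, and BRD2, a bromodomain protein that binds acetylated histones. Many vertebrate cells raise MHC genes when exposed to interferon.

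None of this could be laid onto single genes of the table. The files give Ensembl identifiers without names, and 0 of all 17108 identifiers, these 47 included, matched the RefSeq table of the later assembly GRCg7b. That table lists BF1, BF2, TAP1, TAP2, TAPBP, BLB1, BLB2, DMA, DMB1, DMB2, BRD2, RACK1, BG1, TRIM41, CD1B and CD1C on its chromosome 16, but which of the 47 genes they are was not worked out from position or order. The genes are therefore numbered 1 to 47 from left to right by their start in galGal4, and no role is given to any of them. For the same reason the neural tube identity of the sorted cells was not checked against markers.

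The libraries held 63637195 to 79064166 counts, and chromosome 16 genes took 0.237 to 0.255% of them. Low counts in MEK1ca replicate 2 were almost always even numbers (98.5% of genes between 1 and 99 counts, against 51.5 to 56.1% in the other libraries), and 37 of its 45 nonzero chromosome 16 counts were even. The calls were therefore also made with its counts halved and without it. Halving left the same 6 genes, but scaling by library size removes most of a constant factor. That fit therefore cannot show whether the even counts affected the calls.

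The 47 genes spanned positions 2102 to 480245 of chromosome 16, with 20 on the plus and 27 on the minus strand. They were packed more tightly than genes elsewhere. The median gap to the next gene was 1570.5 bases on chromosome 16, against 6144 bases over all chromosomes with at least 40 genes, and the median gene span was 3037 bases, against 9380 in the whole table. With 495 exons in all, the median gene had 7, the same as in the whole table.

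Genes with at least 20 exons that were short on average marked out a stretch on the right. Of the 6 chromosome 16 genes with at least 20 exons, 5 had a mean exon length under 65 bases, a limit set after these lengths were seen. Over all chromosomes, 10 of 2155 such genes, or 0.464%, were as short, these 5 included. They were gene 36 (247113 to 252747, 30 exons), gene 38 (268887 to 287316, 22 exons), gene 39 (291965 to 332200, 52 exons), gene 40 (297931 to 324982, 33 exons) and gene 41 (335307 to 346680, 29 exons), all on the minus strand. Only gene 37 (258235 to 259935, 4 exons) lay between them. Further left, gene 20 (114604 to 118870) also had a mean exon length under 65 bases, but with 16 exons it fell short of 20. The remaining gene with at least 20 exons, gene 7 (44245 to 58599, 41 exons), lay near the left end, with a mean exon length of 125 bases. Whether the 5 genes have near-identical copies elsewhere was not examined. How reads with several positions were counted is unknown, so the counts of these 5 genes are uncertain. The same limit holds for every chromosome 16 gene, the called ones included, because copies of those were not examined either.

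Levels differed by orders of magnitude along the chromosome. They are given as CPM, counts relative to the TMM-scaled size of the library, and between genes as CPM per kb of summed exon length. The median of the 45 detected genes was 1.83 CPM per kb, against 8.04 for all detected genes of the table. Of the 47 genes, 9 were above 10 CPM per kb and 3 above 100, 16 detected genes were below 1, and 2 had 0 counts in all 4 libraries.

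**Figure D1:**
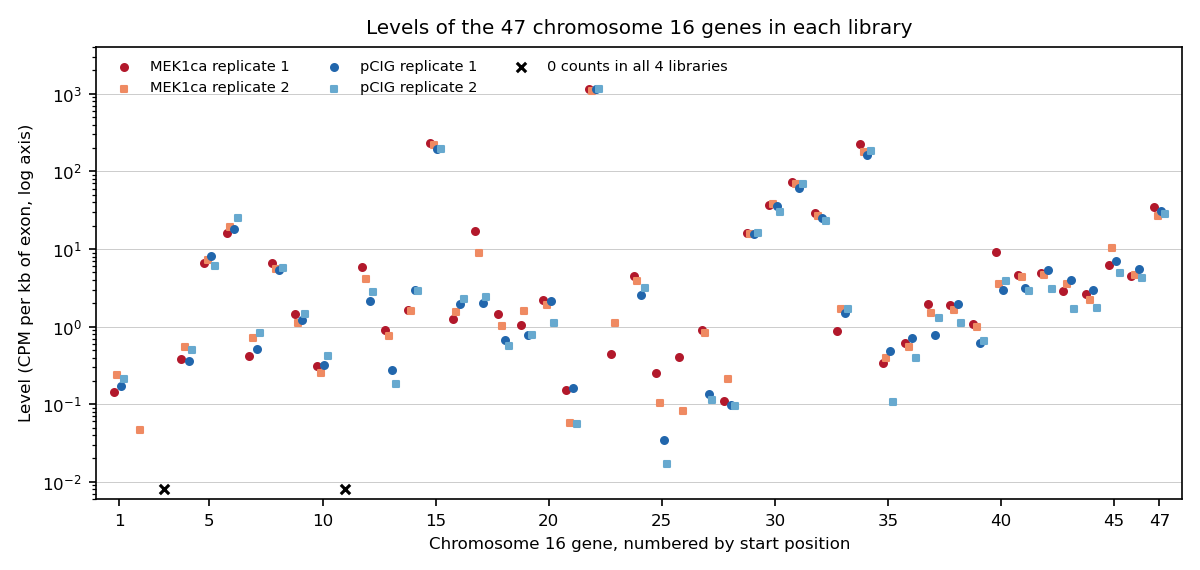
Level of each of the 47 chromosome 16 genes in each library, in CPM per kb of exon on a log axis, with genes in order of start position. A library with 0 counts has no point, and crosses mark genes at 0 in all 4 libraries. Genes 15, 22 and 34 stand above 100 CPM per kb, and a run of genes from 29 to 32 lies above 10.

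Gene 22, at 139264 to 142727 on the plus strand with 8 exons, dominated the chromosome. It had 81222 and 93908 counts in MEK1ca and 101425 and 103511 in pCIG, which was 50.1 to 55.5% of all chromosome 16 counts of a library. Its level of 1105 ± 48.8 CPM per kb in MEK1ca and 1143 ± 7.47 in pCIG (SD, n = 2 each) lay above 99.7% of detected genes. The libraries of the groups overlapped in CPM, and the gene did not pass (log2 fold change -0.05, SE 0.05, edgeR adjusted p = 0.612).

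Gene 15 (89695 to 93569, plus strand, 11 exons) followed, with 228 ± 9.05 CPM per kb in MEK1ca and 194 ± 1.90 in pCIG. Gene 34 (225233 to 229543, minus strand, 9 exons) had 202 ± 35.3 CPM per kb in MEK1ca and 174 ± 13.7 in pCIG. Together with gene 31 (209966 to 214262, plus strand, 7 exons; 71.2 ± 3.71 CPM per kb in MEK1ca and 64.6 ± 5.78 in pCIG), genes 15, 22 and 34 held 88.1 to 89.8% of the chromosome's counts in every library. Gene 30 (204633 to 207109, minus strand, 7 exons) was the fifth, with 37.4 ± 0.534 CPM per kb in MEK1ca and 32.9 ± 3.89 in pCIG. Per kb, the MEK1ca libraries of genes 15 and 34 overlapped, so their order is within the spread there. The other steps between these 5 genes exceeded the spread within either group.

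Of these abundant genes, gene 15 passed the test described below and the others did not. Gene 34 had 20792 and 19955 counts in MEK1ca and 18884 and 21335 in pCIG, with overlapping CPM (log2 fold change 0.21, SE 0.13, edgeR adjusted p = 0.344). Its log2 fold change was 0.38 without MEK1ca replicate 2 and 0.02 without MEK1ca replicate 1. MEK1ca replicate 1 alone stood apart, at 332 CPM against 259 in MEK1ca replicate 2 and 241 and 270 in pCIG. Gene 31 had 7009 and 8012 counts in MEK1ca and 7187 and 8249 in pCIG (log2 fold change 0.14, SE 0.09, edgeR adjusted p = 0.330). Gene 30 had 2823 and 3545 counts in MEK1ca and 3398 and 2906 in pCIG (log2 fold change 0.19, SE 0.11, edgeR adjusted p = 0.293). The rightmost gene, 47 (478531 to 480245, minus strand, 3 exons), stands 69125 bases from its nearest neighbour. It had 2760 and 2590 counts in MEK1ca and 3091 and 2838 in pCIG, with overlapping CPM (log2 fold change 0.04, SE 0.14, edgeR adjusted p = 0.874).

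Summed over the chromosome, expression was nearly equal in the groups. The sums were 2589 and 2369 CPM in MEK1ca and 2337 and 2373 CPM in pCIG, so the groups overlapped. The ratio of the means, 2479 ± 156 CPM in MEK1ca over 2355 ± 25.3 in pCIG, was 1.05 (exact two-sided permutation test, p = 0.667; the smallest p this design allows is 0.333). A sum without genes 22 and 15, the 2 with the highest counts, was added after the data were examined. It was 752 and 639.8 CPM in MEK1ca and 597 and 615 CPM in pCIG, a ratio of 1.15 with no overlap. The exact permutation p was 0.333, the smallest possible, so this test cannot decide.

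MEK1ca was then compared with pCIG gene by gene, which asks how sustained ERK activation changes expression. Enough counts for the test were present for 42 of the 47 genes. Of these, 6 were higher in MEK1ca (14.3%) and 0 lower. Over all 13024 genes tested, 13.9% were called in either direction, 8.18% higher and 5.75% lower. At an unadjusted p under 0.05, 10 chromosome 16 genes were higher (23.8%) and 1 lower (2.38%) with edgeR, against 15.3% and 13.1% of all genes tested. After adjustment DESeq2 called 8 of 45 higher (17.8%) and 0 lower, against 8.94% and 6.81% of 14783 genes. These DESeq2 shares are of all genes with any count, a wider set than edgeR tested, whether or not they received an adjusted p. As these are bulk samples, more cells expressing a gene and more RNA per cell cannot be told apart. At least 2-fold higher calls numbered 5 of 42 (11.9%), against 3.57% of all genes tested. Calls required an adjusted p under 0.05 (edgeR quasi-likelihood F test, Benjamini-Hochberg over all genes tested).

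The direction leaned to MEK1ca, also among the 36 tested genes that were not called, whose median log2 fold change was 0.14. Of the 42 tested genes, the called ones included, 30 had a positive log2 fold change (71.4%), against 49.4% of all genes tested. Their median log2 fold change was 0.18, and that of all genes tested was -0.005. In 15 genes both MEK1ca libraries lay above both pCIG libraries, and in 3 below, 42.9% together. The background for such separation is 58.8% of all genes tested, 29.4% above and 29.5% below. Without pCIG replicate 1 the median was 0.40, so that single library moved it by more than the spread between libraries, and without pCIG replicate 2 it was 0.14. With no filter on low counts, 45 genes were tested, the same 6 were called and the median was 0.18.

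**Figure D2:**
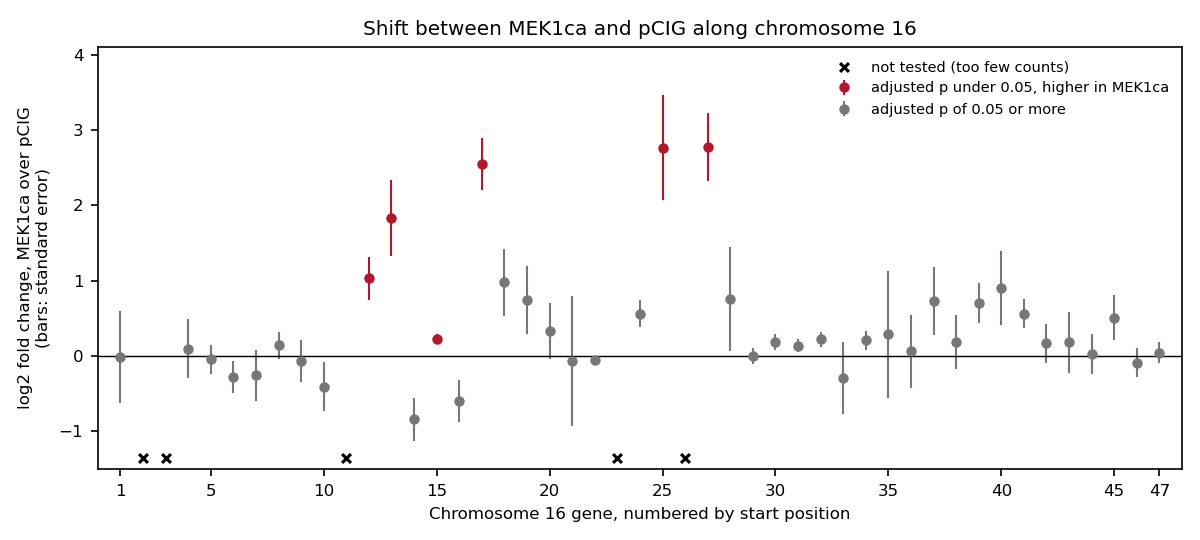
The log2 fold change of MEK1ca over pCIG for the 42 tested genes in order of start position, with standard errors, and crosses for the 5 genes not tested. The 6 genes called higher (red) lie between genes 12 and 27, next to genes 14 and 16, which have log2 fold changes of -0.84 and -0.60.

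All 6 called genes lay between positions 76300 and 186760. That stretch holds 16 genes, of which 14 were tested, and was delimited by the calls themselves. To its left, the 8 tested genes had log2 fold changes of -0.40 to 0.14, 2 of them positive, with a smallest edgeR adjusted p of 0.436. To its right, the 20 tested genes ran from -0.30 to 0.90, 18 of them positive, with a smallest edgeR adjusted p of 0.0823. In windows of 100 kb, the median log2 fold change was -0.04 in the first (13 genes tested), 0.75 in the second (10 genes), 0.20 in the third (12 genes), 0.17 in the fourth (4 genes) and 0.04 in the fifth (3 genes). The first and second windows held 3 called genes each. The fold changes also differed by level. The chromosome 16 median was 0.73 for the 13 genes under a mean of 100 counts. It was 0.17 for the 21 genes from 100 to 1000 counts and 0.16 for the 8 genes above. Over all genes tested, these medians were -0.07, -0.05 and 0.009. Position and level were not separated here.

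Genes 27, 25 and 17 had the highest log2 fold changes, in an order that is within their errors. Gene 27, ENSGALG00000000107, lies on the plus strand at 177447 to 186760 with 9 exons. It had 99 and 114 counts in MEK1ca against 19 and 16 in pCIG, with the groups well apart and the replicates close to each other. Its level was 1.53 ± 0.0720 CPM in MEK1ca and 0.223 ± 0.0287 CPM in pCIG (SD, n = 2 each). That was a 6.84-fold increase, or a log2 fold change of 2.77 with an SE of 0.45 (edgeR adjusted p = 0.00345). It was the one call that held in all 12 alternatives of processing, with edgeR, DESeq2 or limma-voom adjusted p of 1.94e-05 to 0.0408.

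Gene 25, ENSGALG00000000117, on the plus strand at 150525 to 169149 with 14 exons, rose from an even lower level. Counts were 70 and 36 in MEK1ca and 12 and 6 in pCIG, so replicate 1 was the higher one in each group, and the groups did not overlap. Its level was 0.793 ± 0.460 CPM in MEK1ca and 0.115 ± 0.0548 CPM in pCIG (log2 fold change 2.77, SE 0.69, edgeR adjusted p = 0.0286). It overlaps gene 24 (144211 to 162982) on the opposite strand over 12458 bases, but the exons of the genes share 0 bases. Gene 24 had 913 and 964 counts in MEK1ca and 634 and 810 in pCIG, a log2 fold change of 0.56 with an SE of 0.18 that did not pass (edgeR adjusted p = 0.0674). Whether featureCounts used strand here is unknown, and unspliced reads of either gene that fall in an exon of the other cannot be told apart.

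Gene 17 had the strongest change among genes above 1 CPM per kb. This plus-strand gene of 4 exons at 102122 to 103266 had 723 and 456 counts in MEK1ca against 106 and 129 in pCIG. All of its pCIG values were far below its MEK1ca values, although MEK1ca replicate 1, at 11.6 CPM, stood well above replicate 2, at 5.92 CPM. The means were 8.74 ± 3.98 CPM in MEK1ca and 1.49 ± 0.195 CPM in pCIG, a 5.84-fold increase with a log2 fold change of 2.55 and an SE of 0.34 (edgeR adjusted p = 0.00218).

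Genes 12 and 13 are neighbours on the minus strand. Gene 13 (79575 to 96270, 4 exons) had 62 and 64 counts in MEK1ca and 24 and 16 in pCIG, a log2 fold change of 1.83 with an SE of 0.51 (edgeR adjusted p = 0.0425). Gene 12 (76300 to 79327, 6 exons) had 341 and 292 counts in MEK1ca and 154 and 202 in pCIG, with a log2 fold change of 1.03 and an SE of 0.28 (edgeR adjusted p = 0.0405). In neither gene did the groups overlap, and both adjusted p-values were close to the threshold. Both genes lost the call when scaled by library totals (edgeR adjusted p = 0.0509 for gene 12 and 0.0503 for gene 13), and gene 12 also with limma-voom (adjusted p = 0.0520). The span of gene 13 encloses genes 14 and 15, whose exons share 0 bases with its own. Gene 15, on the opposite strand, had 34683 and 35560 counts in pCIG, and whether featureCounts used strand is unknown. Any unspliced reads of genes 14 and 15 that fall in an exon of gene 13 cannot be told apart.

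Gene 15, the second most abundant gene of the chromosome, made the smallest called change. It had 33726 and 39237 counts in MEK1ca and 34683 and 35560 in pCIG, which scaled to 539 and 509.5 CPM in MEK1ca and 443 and 449.5 CPM in pCIG. The increase was 1.17-fold, a log2 fold change of 0.23 with an SE of 0.06 (edgeR adjusted p = 0.0293). The other 5 called genes were at 0.102 to 7.59 CPM per kb, well under gene 15.

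**Figure D3:**
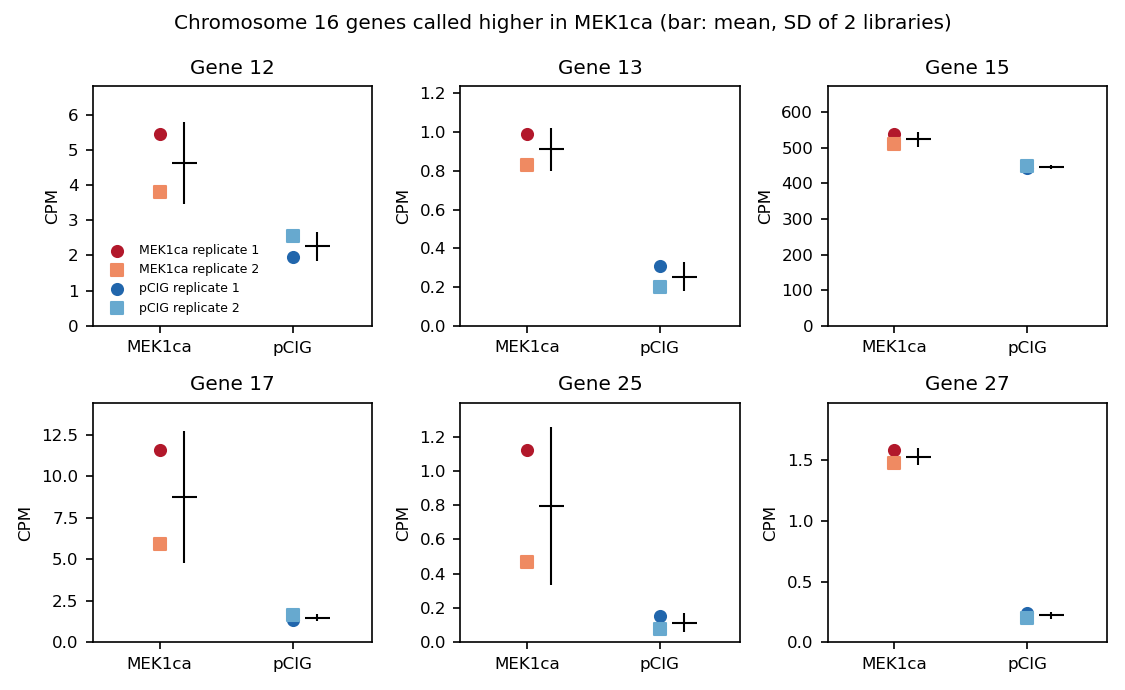
CPM of the 6 chromosome 16 genes called higher in MEK1ca, for each library, with the mean and SD of each group of 2 libraries and a linear axis that starts at 0. In every gene both MEK1ca libraries lie above both pCIG libraries; relative to their mean, the MEK1ca replicates lie furthest apart in genes 17 and 25.

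The calls depended on single libraries, here as in the rest of the table. Without pCIG replicate 1, pCIG replicate 2 or MEK1ca replicate 1, most of the 6 calls were lost, and only gene 27 kept its call each time. A smaller share of all genes tested passed as well. Whether chromosome 16 lost more of its calls than other genes was not tested. Without MEK1ca replicate 2, when 15.5% of all genes passed, 9 genes passed, gene 13 not among them, with genes 24, 26, 34 and 40 added. In these fits the lone remaining library was assumed to vary like the other group. Across all alternatives gene 17 ran from 1.99 to 2.95 on the log2 scale, gene 25 from 2.02 to 3.34, gene 13 from 1.56 to 2.15 and gene 12 from 0.75 to 1.27, each with a positive sign throughout. Of the 6 called genes, 3 overlap another gene, and without the overlapping genes 3 calls remained among 33 tested.

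Of the 3 lowest fold changes, those of genes 14 and 16 lay between called genes and that of gene 10 to their left. Gene 14 (82023 to 84232, minus strand, 4 exons), which sits inside gene 13 on the same strand, had 94 and 112 counts in MEK1ca and 211 and 206 in pCIG. The log2 fold change of -0.84 (SE 0.29) has the opposite sign to that of gene 13, but gene 14 did not pass (edgeR adjusted p = 0.0840). Gene 16 (97656 to 101192, plus strand, 8 exons) had 108 and 162 counts in MEK1ca and 212 and 245 in pCIG, with a log2 fold change of -0.60 and an SE of 0.28 (edgeR adjusted p = 0.197). It ends 929 bases before gene 17, which rose. Gene 10 (67623 to 76124, plus strand, 11 exons) had 105 and 106 counts in MEK1ca and 135 and 183 in pCIG, a log2 fold change of -0.40 with an SE of 0.32 (edgeR adjusted p = 0.456). These were the only tested genes whose MEK1ca libraries both lay below both pCIG libraries.

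None of the 5 genes with many short exons passed in the main edgeR fit, in which 13.9% of all genes tested passed. Their log2 fold changes were above 0, as in 18 of the 20 tested genes from 28 to 47, these 5 included. Those of gene 36 (0.06, SE 0.48) and gene 38 (0.19, SE 0.36) were near 0, with overlapping groups. Gene 39 had 212 and 241 counts in MEK1ca and 151 and 164 in pCIG (log2 fold change 0.70, SE 0.26, edgeR adjusted p = 0.113). Gene 41 had 530 and 613 counts in MEK1ca and 458 and 417 in pCIG (log2 fold change 0.56, SE 0.19, edgeR adjusted p = 0.0823). It was called by DESeq2, and by edgeR with a block for the replicate number. In genes 39 and 41 the groups did not overlap. Gene 40 had 932 and 443 counts in MEK1ca and 372 and 496 in pCIG, and here MEK1ca replicate 1 alone stood apart (log2 fold change 0.90, SE 0.50, edgeR adjusted p = 0.325). The gene models 39 and 40 overlap over 27052 bases on one strand, with 0 exon bases shared.

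The 36 tested genes that did not pass had log2 fold changes of -0.84 to 0.98, and 25 of them were within 0.5 of 0. The highest was that of gene 18 (104372 to 106726, minus strand, 5 exons), next to gene 17, with 77 and 66 counts in MEK1ca and 45 and 38 in pCIG (log2 fold change 0.98, SE 0.45, edgeR adjusted p = 0.185). Gene 19 (108301 to 110805, plus strand, 6 exons) had 46 and 86 counts in MEK1ca and 43 and 44 in pCIG (log2 fold change 0.75, SE 0.45, edgeR adjusted p = 0.320). In both the groups were apart in CPM, at counts where an SE of 0.45 leaves wide room. At the left end, gene 6 (42328 to 43892, minus strand, 4 exons) had 395 and 590 counts in MEK1ca and 562 and 775 in pCIG, with overlapping CPM (log2 fold change -0.28, SE 0.21, edgeR adjusted p = 0.436). Its neighbour gene 5 (37924 to 41746, minus strand, 10 exons) had 560 and 756 counts in MEK1ca and 864 and 654 in pCIG (log2 fold change -0.04, SE 0.19, edgeR adjusted p = 0.920).

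Of the 5 genes not tested, 3 had 0 counts in both pCIG libraries. Gene 26 (174910 to 176418, plus strand, 4 exons), between genes 25 and 27, had 16 and 4 counts in MEK1ca, at least 4.03-fold above a floor of 3 counts per pCIG library by the mean of the libraries. Against the same floor, MEK1ca replicate 1 alone gives 6.71-fold and replicate 2 alone, the library with even counts, 1.36-fold, so the bound rests on replicate 1. This floor covers counting error only. Gene 23 (142134 to 142204, plus strand), a single exon of 71 bases within gene 22 that shares 0 bases with its exons, had 2 and 6 counts in MEK1ca. Gene 2 (5769 to 8509, plus strand, 6 exons) had 0 and 6. A mean as low as that of genes 2 and 23 is not separable from 0 at this depth. Genes 3 (9312 to 10259) and 11 (73099 to 75588), both on the minus strand, had 0 counts in all 4 libraries. All 1543 exon bases of gene 11 lie within exons of gene 10 on the other strand. How reads in these shared bases were counted is unknown, so the 0 of gene 11 and the counts of gene 10 are uncertain.

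Replicates differed more on chromosome 16 than was typical. The median absolute log2 difference between replicates was 0.28 in MEK1ca and 0.31 in pCIG over the 42 tested genes, against 0.14 in each group over all genes tested. Chromosome 16 genes were also lower in counts. Among the 21 with a mean of 100 to 1000 counts, the differences were 0.28 in MEK1ca and 0.40 in pCIG, against 0.24 and 0.23 over the 2925 genes of that range. Under a mean of 100 counts, the values were 0.52 in MEK1ca and 0.45 in pCIG for 13 chromosome 16 genes and 0.56 in both groups for all 2239 genes. Above 1000 counts, they were 0.097 in MEK1ca and 0.146 in pCIG for 8 chromosome 16 genes. For all 7860 genes of that range they were 0.089 and 0.095.

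The pCIG replicates parted in a run of genes on the right, singled out after the values were seen. Gene 42 (366619 to 369245) had 540 and 639 counts in MEK1ca and 749 and 434 in pCIG. Gene 43 (380198 to 384541) had 181 and 279 in MEK1ca and 317 and 135 in pCIG. Gene 44 (389809 to 394217) had 604 and 622 in MEK1ca and 861 and 504 in pCIG. Genes 45 (402631 to 404125) and 46 (406688 to 409405) went the same way, so that pCIG replicate 1 was 1.31 to 2.37 times replicate 2 in CPM in all 5. In 4 of the 5, both MEK1ca libraries lay between the pCIG libraries.

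Over the chromosome, 13 of 42 genes (31.0%) had a pCIG replicate 1 at least 1.3 times replicate 2, and 6 the reverse. Over all genes tested the shares were 12.3% and 7.52%. By level, the share with the higher replicate 1 was 38.5% on chromosome 16 and 36.9% over all genes under a mean of 100 counts, 38.1% and 19.2% from 100 to 1000 counts, and 0 of 8 genes and 2.68% above 1000 counts. Since genes 42 to 46 were picked for this difference, leaving out either pCIG library had to move their fold changes. The log2 fold changes were -0.09 to 0.51 with all libraries, 0.11 to 0.93 without pCIG replicate 1 and -0.31 to 0.28 without pCIG replicate 2, and 0 of the 5 passed in any of these fits (smallest edgeR adjusted p = 0.165 without pCIG replicate 1).

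**Figure D4:**
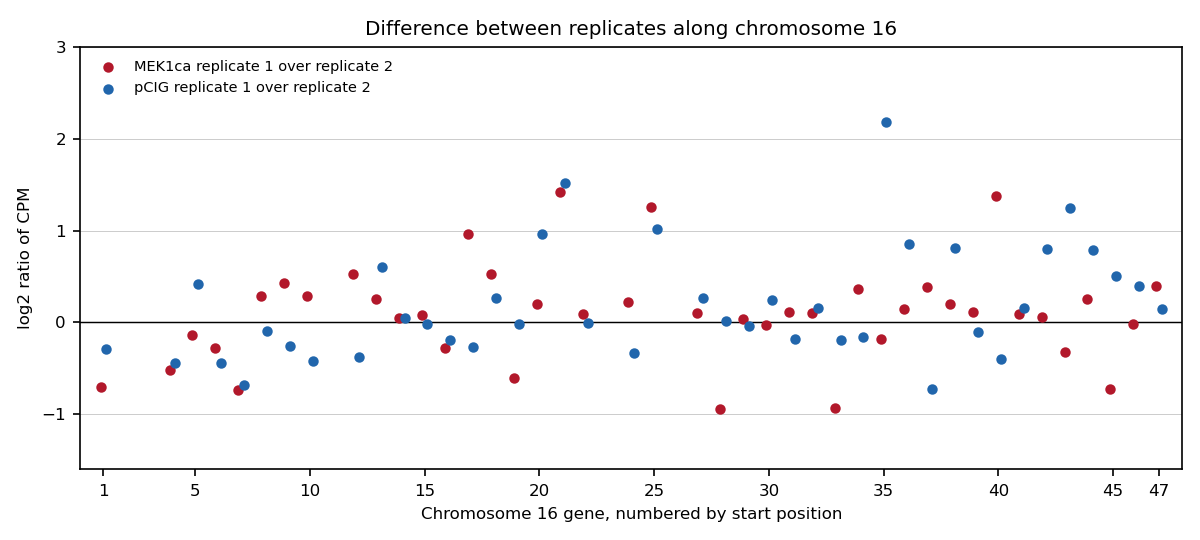
The log2 ratio of replicate 1 over replicate 2 in CPM, for MEK1ca (red) and pCIG (blue), in the 42 tested genes in order of start position. Genes 42 to 46 all have a pCIG ratio above 0, while their MEK1ca ratios fall on both sides of 0.

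Chromosome 16 was set beside 2 other microchromosomes. On chromosome 22, 8 genes were called higher and 5 lower of 109 tested (11.9%), with a median log2 fold change of -0.004. On chromosome 25, 3 were higher and 6 lower of 135 tested (6.67%), with a median of -0.009. Among the 29 chromosomes with at least 40 tested genes, the median of chromosome 16 was the highest, and the other medians ran from -0.09 to 0.04. Chromosome 16, with only 42 tested genes, was just above that limit and had many low counts. Chromosomes with fewer than 40 tested genes were not ranked, and this order is a description without a test.

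**Figure D5:**
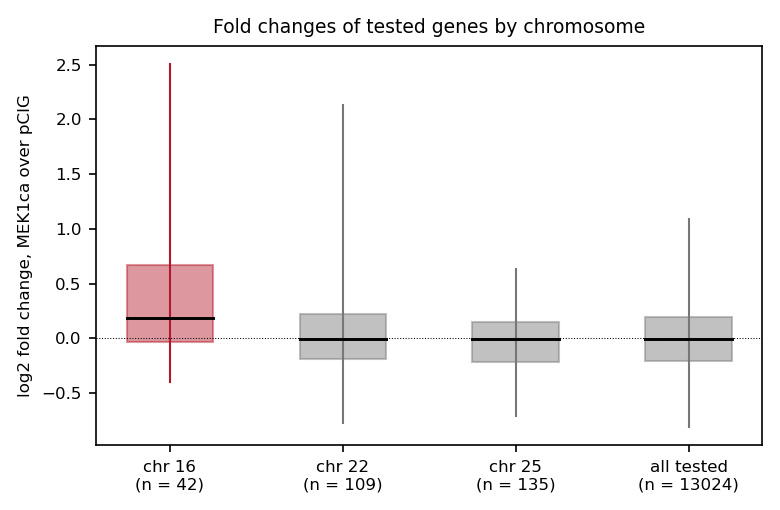
Distribution of log2 fold changes of MEK1ca over pCIG for tested genes of chromosomes 16, 22 and 25 and for all genes tested. Black lines are medians, boxes the middle 50% and thin lines the 5th to 95th percentile; the chromosome 16 box runs from -0.03 to 0.67 and that of all genes from -0.21 to 0.19.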

How the data were processed

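RNA-seq was made from GFP-expressing cells sorted from electroporated chicken neural tubes, after linear amplification of cDNA and poly-A selection. The authors deposited raw counts per gene, with galGal4 coordinates and summed exon length. Subread, featureCounts and DESeq are named in the submitters' processing notes without versions. How strand and reads with several positions were treated: not given in the sources used here. Both pCIG libraries carry the label of a re-analysis, and a batch that follows the groups cannot be told apart from the plasmid. A second deposited table holds the authors' own comparison and was not used.

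All 17108 genes were read, and those kept by filterByExpr (minimum count 10), 13024, entered edgeR 4.0.16 (R 4.3.3): TMM, glmQLFit and glmQLFTest with robust estimation, group as the only term, two-sided, Benjamini-Hochberg. SEs were derived from the F statistic. Replicates differed beyond counting noise (chi-square per gene 33.3 in MEK1ca, 27.2 in pCIG) and were counted as separate libraries. Alternatives were RLE scaling, library totals, DESeq2 1.42.0, limma-voom 3.58.1, other filters, a replicate block, halved counts and leaving out each library. Genes described in full were all called genes, the 5 highest in CPM per kb, the 3 highest and 3 lowest fold changes, and genes at 0 in one group only. Planned gene lists, markers and promoter motifs were not run, because names could not be matched. Genes, lists and rules were chosen with earlier results of these data known.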

Additional observations from a re-analysis of the deposited data

How the results depend on the processing

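The number of chromosome 16 genes called was 6 in the main fit, when 13.9% of all genes tested were called. It was 4 with library totals (13.2% of all genes tested) and 5 with limma-voom (13.2%). With the stricter filter of 10 counts in every library it was 5 (14.4%), and gene 25 was not tested there. It was 6 with RLE scaling (14.0%), no filter (13.6%) or halved counts of MEK1ca replicate 2 (14.1%). DESeq2 called 8 (15.7%). Leaving out 1 library gave 1 to 9 genes, all of them higher, when 4.82 to 15.5% of all genes tested were called, and a median log2 fold change of 0.14 to 0.40. Without genes whose span overlaps another, an alternative added after the data were examined, 3 were called and all 3 were higher; fewer genes were then tested. No gene was called lower in any of these fits (edgeR, DESeq2, limma-voom). With the replicate block 8 genes were called, the 6 and genes 24 and 41, and 22.1% of all genes tested. No label says that a number marks a shared batch, and 2 pairs cannot show it: differences between replicates correlated at 0.15 between the groups across all genes tested and at 0.12 across those of chromosome 16. Of the 13 genes tried singly, 0 changed sign in any alternative. Their 155 values include those of genes that had no call to lose. All 18 lost calls fell in the 6 genes called in the main fit, most of them when a library was left out. The cause of these losses was not tested. Depth limits genes under about 10 counts per library.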
